A study of Mus musculus with 30 samples.

Results

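The 38 genes described here carry the response to low oxygen and the glycolytic pathway that it feeds, and they were followed through 30 RNA-seq libraries from mouse 4T1 breast tumours. They were taken by gene name from the deposited count tables, which hold 55401 genes, and matched by gene identifier across the tables. All 38 names were found. They occupy 39 rows, because Aldoa has a second annotated gene that holds 1 count in all libraries together and is left aside.

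Cells short of oxygen stop destroying the transcription factor HIF-1. Its alpha subunit, the product of Hif1a, is marked by prolyl hydroxylases that need oxygen (Egln1 and Egln3) and is then degraded. When it persists it raises genes that import glucose, run glycolysis, turn pyruvate into lactate and export it, recruit blood vessels and remodel collagen. Activated T cells switch on many of the same genes even where oxygen is plentiful, and solid tumours hold poorly perfused regions in which they are typically high.

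4T1 is a mammary carcinoma line, here labelled with green fluorescent protein (4T1-GFP). The mice, of genotype wild-type, were given control IgG1 (CTRL) or the antibody C269, which binds extracellular NAMPT (eNAMPT). Injections were made 2 times a week over 1 month, and C269 was dosed at 2.5 mg/kg. The labels give no strain or age and do not say whether the 5 samples of a group came from separate mice, so the p-values measure the spread between these samples, which may be in part technical. Tumour cells were obtained by sorting, and CD4+ and CD8+ T cells with magnetic beads, which makes 6 groups of 5 libraries: 1 to 5 (4T1 CTRL), 6 to 10 (4T1 C269), 11 to 15 (CD4 CTRL), 16 to 20 (CD4 C269), 21 to 25 (CD8 CTRL) and 26 to 30 (CD8 C269). These numbers head the count columns. The comparisons ask where the hypoxia and glycolysis genes are high and how they stood under C269 in each population.

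Total counts ran from 2178682 to 5208420 per library. Levels are in CPM, each gene's count scaled by the library's counts assigned to genes, and where genes are compared with each other, in CPM per kilobase of exon. That length joins all annotated exons of a gene and can exceed the length of a single transcript. Libraries 9 and 10 (4T1 C269) stood apart from the other 28: the intestinal mucin Muc2 was at 4408 and 5348 CPM there, against at most 10.6 CPM elsewhere, and 10 intestinal goblet cell genes summed to 7493 and 8334 CPM, against at most 147 CPM. Xist, which female cells express from the inactive X chromosome, was at 0.449 and 0.193 CPM in these libraries and at 528 to 2093 CPM in the others, and 4 Y-linked genes summed to 208 and 210.4 CPM, against at most 1.39 CPM. Results on 4T1 C269 are therefore given with and without them. The labelled T cell fractions carried 12 T cell markers at sums of 1771 to 6688 CPM. The 12 epithelial markers, among them keratins, had sums of 252 to 631 CPM in the 4T1 controls and of 229.7 to 351 CPM in the CD4 controls, whereas 11 neutrophil genes summed to 4489 to 15021 CPM in 4T1 CTRL. The sorted tumour cells are called the 4T1 fraction for that reason. In such bulk samples, fewer cells of a type and less RNA per cell cannot be told apart.

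Hilpda, a lipid droplet protein and HIF target, had the highest level per length in 4T1 CTRL. It averaged 445 ± 118 CPM per kilobase in 4T1 CTRL, 181 ± 27.5 in CD4 CTRL and 180.4 ± 42.0 in CD8 CTRL (SD, n = 5 each). Aldoa, the aldolase that splits fructose bisphosphate, was at 321 ± 91.96, 238 ± 66.2 and 173 ± 57.3 CPM per kilobase in the same order. The ranking of these genes depends on the joined exon length, 1103 bases for Hilpda and 2911 for Aldoa. Ldha, which makes lactate, was at 182 ± 52.8, 158 ± 20.9 and 107 ± 17.6 CPM per kilobase. Pkm, the last glycolytic kinase, lay within the spread of Ldha in each population, at 179.6 ± 50.1, 156 ± 29.4 and 95.6 ± 19.9 CPM per kilobase. At the low end Ak4, a mitochondrial adenylate kinase, averaged 3.03 ± 1.62, 1.898 ± 1.47 and 0.397 ± 0.247 CPM per kilobase.

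The enzymes of lower glycolysis were measured with unequal certainty. Gapdh averaged 32.8 ± 5.78 CPM per kilobase in 4T1 CTRL, Eno1 11.2 ± 4.204, Pgk1 8.44 ± 1.97 and Pgam1 4.71 ± 3.04, all below Pkm and Aldoa. Stretches of the Gapdh transcript of at least 200 bases recur at 95% identity or more in 78 other annotated genes, 74 of them pseudogenes, and such stretches were also found for Bnip3 (5 genes), Pgk1 and Ldha (4 each), Eno1 (3), Pkm (2), and Pfkp, Ndrg1, Plod2, Pgam1, Tpi1, Gpi1, Ak4 and Bnip3l (1 each). How reads matching several genes were counted is not given in the sources used here, and the values of these members are uncertain to that extent.

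**Figure D1:**
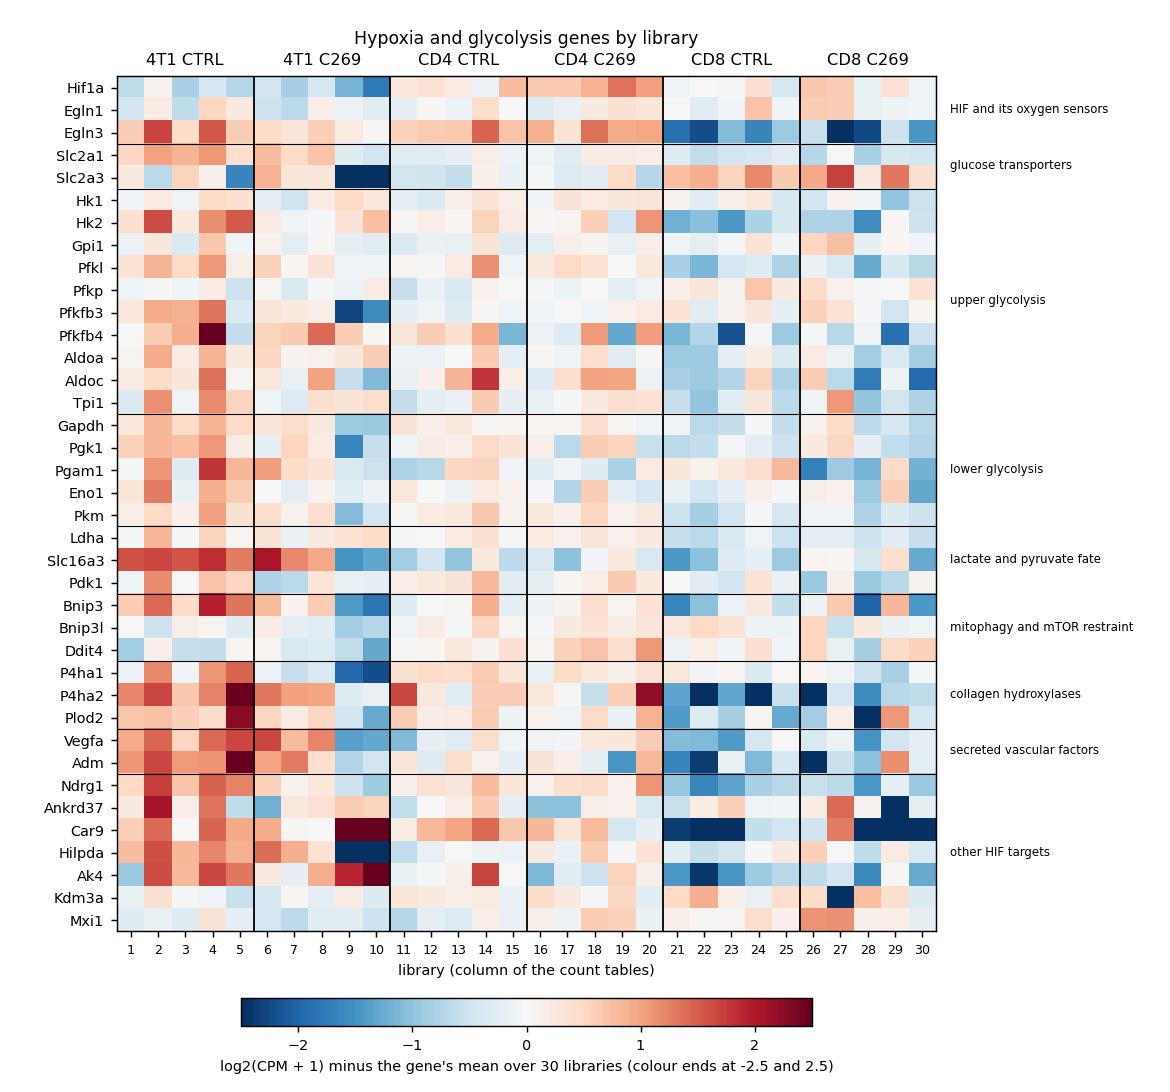
Level of each of the 38 genes (rows, grouped by role) in each of the 30 libraries (columns, grouped by population and treatment), as log2(CPM + 1) minus the gene's mean over all libraries. Red is above and blue below that mean. Libraries 9 and 10 are low for Hilpda and Slc2a3 and high for Car9, and Egln3, Car9 and P4ha2 are below their means in CD8 CTRL.

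The first comparison, between populations under control antibody, showed where these genes are high. In the 4T1 fraction against CD4+ T cells 11 of 38 members were higher and 1 was lower (28.9% and 2.63% of the members; of all 13201 genes tested 7.01% were higher and 5.71% lower, edgeR quasi-likelihood test, adjusted p under 0.05). The fit of all 30 libraries called only 3 of 38 members there, Slc16a3, Slc2a1 and Vegfa, and 868 of 14731 genes. Against CD8+ T cells 26 of 38 were higher and 1 lower (68.4% and 2.63%, against 22.7% and 17.9% of all genes). The median log2 difference over the members was 0.52 and 0.95, beside -0.0034 and 0.01 over all genes. CD8+ T cells had 2 members higher and 8 lower than CD4+ T cells (5.26% and 21.1%, against 3.47% and 9.09% of all genes), with a median of -0.34. These 3 contrasts share control libraries pairwise and are not independent of each other.

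Slc16a3, which encodes the lactate exporter MCT4, was higher in the 4T1 fraction than in both T cell populations. It was at 179, 187, 175, 213 and 145 CPM in the 4T1 CTRL libraries. The CD4 CTRL libraries held 31.6, 41.5, 28.8, 69.3 and 36.8 CPM and the CD8 CTRL libraries 20.98, 28.3, 46.4, 48.9 and 30.4 CPM. No control T cell library reached the lowest 4T1 CTRL library, and the 2 T cell groups overlapped. The log2 difference of 4T1 was 2.22, SE 0.24 (adjusted p = 1.56e-05) against CD4 and 2.39, SE 0.24 (adjusted p = 2.36e-06) against CD8 (edgeR). Ldha, which supplies that lactate, passed against CD8, at 0.76, SE 0.16 (adjusted p = 9.87e-04, edgeR), and its difference from CD4 was 0.29 (SE 0.16) without passing. Pdk1, the kinase that restrains entry of pyruvate into mitochondrial oxidation, likewise passed against CD8 at 0.64 (SE 0.23), with 0.34 (SE 0.23) against CD4.

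The glucose transporter genes differed in where their RNA was high. Slc2a1 (GLUT1), the widely expressed transporter, was at 209.6, 296, 262, 309 and 195 CPM in 4T1 CTRL, at 120.5, 121, 126, 163 and 132 CPM in CD4 CTRL and at 117, 94.5, 106, 108 and 121 CPM in CD8 CTRL. Every 4T1 library lay above every T cell library of these groups, and the log2 differences were 1.03 (SE 0.14) and 1.22 (SE 0.14). Slc2a3 (GLUT3), a transporter of higher affinity, was at 48.97, 25.6, 61.2, 45.7 and 12.5 CPM in the 4T1 controls, at 30.05, 28.9, 27.2, 45.5 and 37.1 CPM in the CD4 controls and at 70.6, 78.7, 61.4, 96.95 and 65.5 CPM in the CD8 controls. All CD8 libraries stood above all CD4 libraries and, by a small margin, above the highest 4T1 library. Slc2a3 was lower in 4T1 than in CD8, at -0.89, SE 0.31 (adjusted p = 0.0304), and higher in CD8 than in CD4, at 1.23, SE 0.32 (adjusted p = 0.0146; edgeR).

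At the first step of glycolysis, Hk2, the inducible hexokinase, was higher in the 4T1 fraction by 0.98 (SE 0.24) against CD4 and 2.03 (SE 0.25) against CD8 on the log2 scale, and lower in CD8 than in CD4, at -1.05 (SE 0.24). Hk1, the constitutive hexokinase, passed in none of the 3 contrasts. Of the 10 genes of upper glycolysis, 2 were higher in 4T1 against CD4 (Hk2 and Pfkfb3) and 7 against CD8, among them Pfkl, the liver phosphofructokinase, at 1.31 (SE 0.23). Pfkp, the platelet phosphofructokinase, was higher in CD8 than in CD4, at 0.56 (SE 0.16), while Pfkl was lower there, at -0.93 (SE 0.22). The call of Pfkp was lost with no filter on low counts and without library 11, 13, 22 or 24. Of the 5 genes of lower glycolysis 2 passed against CD4 (Gapdh and Eno1) and 4 against CD8 (Gapdh, Pgk1, Eno1 and Pkm), all higher in 4T1. Among all genes 7.01% were higher in 4T1 against CD4 and 22.7% against CD8. The calls of Gapdh and Eno1 against CD4 were lost in 10 of the alternative fits each, among them those without library 2 or 4, at log2 differences of 0.53 (SE 0.16) and 0.66 (SE 0.21) with all libraries.

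**Figure D2:**
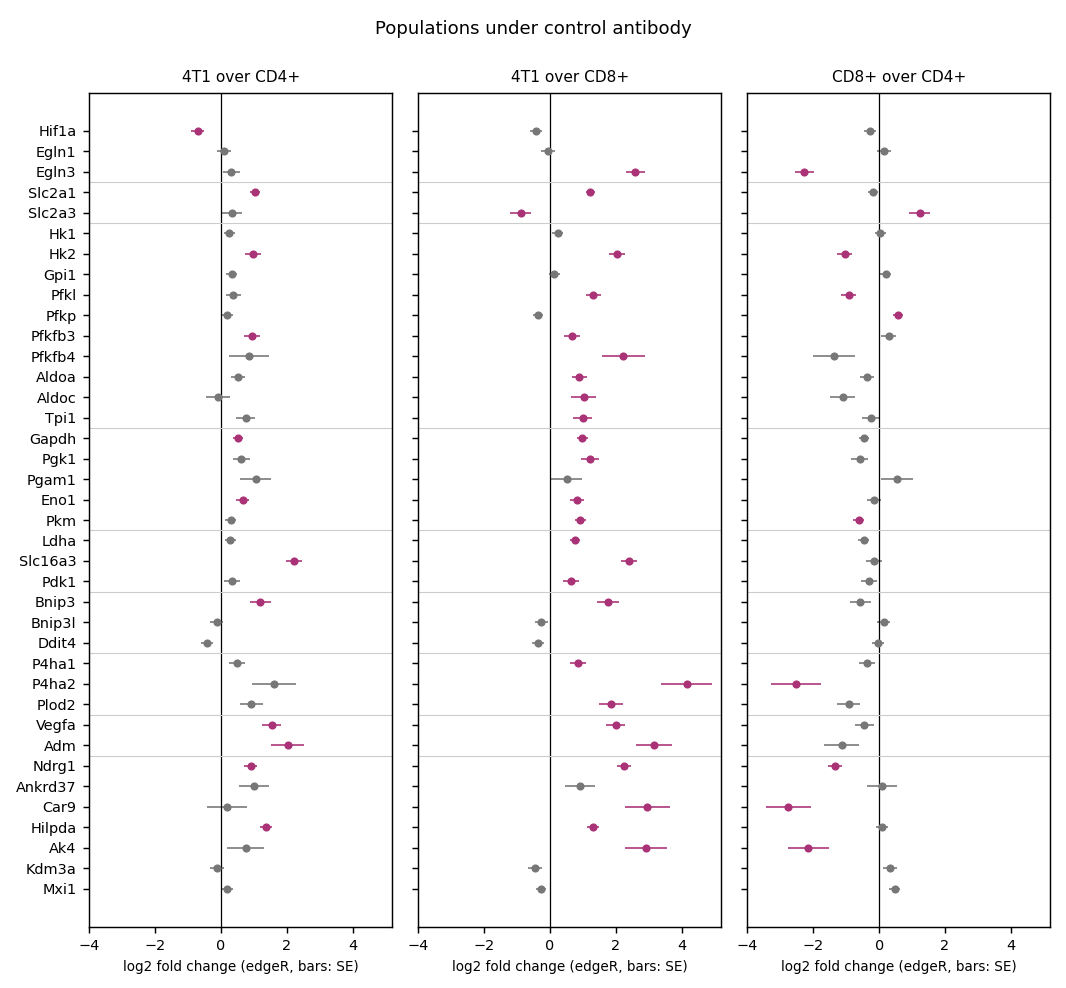
Log2 fold change between populations under control antibody for each member (rows), with bars of 1 SE from edgeR. Purple points passed an adjusted p of 0.05. They are mostly right of 0 in the panels of 4T1 over CD4+ (11 of 38 higher) and over CD8+ (26 of 38 higher), and mostly left of 0 in that of CD8+ over CD4+ (8 of 38 lower).

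Secreted factors were higher in the 4T1 fraction against both. Adm, the vasodilator adrenomedullin, was higher by 2.02 (SE 0.51) against CD4 and 3.16 (SE 0.55) against CD8, although library 5 alone held 87.3 CPM and the other 4 between 18.8 and 29.4. Without library 5 the difference from CD4 no longer passed. Vegfa, the main endothelial growth factor, was higher by 1.55 (SE 0.29) and 1.99 (SE 0.29). All 3 collagen hydroxylases passed against CD8: P4ha2 and Plod2, which act on proline and lysine, were higher by 4.14 (SE 0.78) and 1.85 (SE 0.37), P4ha2 lying at 0 to 7.15 CPM in CD8 CTRL. Hilpda was higher by 1.38 (SE 0.18) and 1.304 (SE 0.18), and Bnip3, a mitophagy receptor, by 1.19 (SE 0.32) and 1.77 (SE 0.33). The call of Bnip3 against CD4 was lost without library 11, 12, 13 or 15.

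Between the T cell populations the oxygen sensor Egln3 had the smallest p. Egln3 (PHD3), a prolyl hydroxylase that is itself a HIF target, was at 80.2, 84.2, 84.8, 149 and 89.3 CPM in CD4 CTRL and at 14.1, 10.8, 24.9, 16.5 and 28.3 CPM in CD8 CTRL. These groups did not overlap, and the log2 difference of CD8 from CD4 was -2.27, SE 0.29 (adjusted p = 5.29e-05, edgeR). The 4T1 CTRL libraries, at 83.2, 176, 74.4, 159 and 83.1 CPM, overlapped CD4 and lay above CD8 (2.59, SE 0.29). Egln1 (PHD2), the main oxygen sensor, passed in no contrast. Ndrg1, a stress gene of the HIF response, was lower in CD8 than in CD4, at -1.34 (SE 0.21), as was Car9, a carbonic anhydrase of hypoxic cell surfaces, at -2.76 (SE 0.69) and no more than 4.65 CPM in CD8 CTRL. Ak4 and P4ha2 were lower too (-2.16, SE 0.62 and -2.53, SE 0.76), and the call of Ak4 was lost without library 14, 21, 22 or 23 and that of P4ha2 without library 11, 14, 15, 21, 22, 23 or 24. In the fit of all 30 libraries Car9 and Slc2a3 did not pass either.

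Hif1a was the 1 member lower in the 4T1 fraction than in CD4+ T cells. The 4T1 controls held 196, 328, 174, 227 and 185 CPM and the CD4 controls 368, 391, 352, 277 and 521 CPM, overlapping through libraries 2 and 14. The log2 difference was -0.71, SE 0.19 (adjusted p = 0.0234, edgeR), and the call was lost without library 12 or 15. HIF-1 activity is set mainly by the stability of its protein, which RNA counts do not measure.

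Of 40 further hypoxia targets 38 were tested between populations: 12 were higher and 2 lower in 4T1 than in CD4, 22 higher and 3 lower than in CD8, and 9 lower in CD8 than in CD4. Ero1l, an oxidase of disulfide bond formation, was higher in 4T1 by 1.11 (SE 0.18) against CD4 and 1.62 (SE 0.18) against CD8, and Angptl4, a secreted lipase inhibitor, by 2.23 (SE 0.53) against CD4. Of 14 further HIF regulators 13 were tested, and 0 were higher in 4T1 in either contrast, while 1 (Arnt2, -3.95, SE 0.95) was lower than in CD4 and 4 were lower than in CD8, among them Hif1an, the asparaginyl hydroxylase that blunts HIF, at -1.18 (SE 0.28). Of 30 further glycolytic and pyruvate genes 24 were tested, and 3 and 8 were higher in 4T1, with G6pdx, the entry to the pentose phosphate pathway, at 0.73 (SE 0.202) and 1.39 (SE 0.21). Among all genes 7.01% were higher and 5.71% lower in 4T1 than in CD4, and 22.7% and 17.9% than in CD8. Lower in CD8 than in CD4 were 9.09% of all genes.

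Markers of other cells moved with these contrasts. All 11 neutrophil genes were higher in 4T1 CTRL in both, at sums of 4489 to 15021 CPM against 724 to 1006 in CD4 CTRL and 303 to 593 in CD8 CTRL. Of 9 fibroblast genes 8 were higher against CD4 and 9 against CD8 (3274 to 54681 CPM in 4T1 CTRL, 624 to 6188 in CD4 CTRL, 334 to 914 in CD8 CTRL). In CD8 CTRL against CD4 CTRL all 9 fibroblast genes had lower values, 2 of them called, as had all 11 neutrophil genes, 3 of them called. Of 12 epithelial genes 9 were tested there, with 6 called lower and 1 called higher, and their sums were 37.9 to 111 CPM in CD8 CTRL and 229.7 to 351 CPM in CD4 CTRL. No gene of these 3 lists was at 0 in a whole group, and their part in the differences was not tested.

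The central comparison was that of C269 with control antibody in the 4T1 fraction. No member passed the adjusted threshold there: 0 of 38 were called, as were 0 of all 12875 genes (0%, edgeR; the smallest adjusted p of a member was 0.355). In counts simulated with the spread of these libraries, edgeR recovered 2.99% of 2-fold, 31.3% of 4-fold and 50% of 8-fold changes. For the CD4 and CD8 comparisons it recovered 43.3% and 28.4% of 2-fold and 89.6% and 74.6% of 4-fold changes. The absence of calls in 4T1 therefore says less than in the T cells. Values in C269 were lower for 34 members and higher for 4, with a median log2 fold change of -0.44 over the members and 0.04 over all genes. At an unadjusted p under 0.05, 10 members were lower and 0 higher, 26.3% of the members against 4.86% of all genes on the lower side. DESeq2 called 0 members and 307 genes, and with voom and sample weights 29 members had lower values. Without libraries 9 and 10 there were again 0 calls among members and among 13750 genes (0%, edgeR), 33 members lower, a median of -0.21, and 4 members lower at an unadjusted p under 0.05 (10.5%, against 3.77% of all genes): P4ha1, Hk2, Ndrg1 and Pdk1.

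By the files' coordinates, which match GRCm38 gene starts, P4ha1 (ENSMUSG00000019916, chr10:59323296-59373304, plus strand), Hk2 (ENSMUSG00000000628, chr6:82725025-82774454, minus strand), Pdk1 (ENSMUSG00000006494, chr2:71873224-71903858, plus strand) and Ndrg1 (ENSMUSG00000005125, chr15:66929318-66969640, minus strand) are the genes concerned. Upstream sequence is printed for those of these 4 that have an entry in the promoter table, P4ha1, Hk2 and Pdk1, together with Bnip3, which has the most motif matches of those shown, and Slc16a3, described above between populations. Each stretch lies upstream of the RefSeq transcript start on GRCm38.p6, is given 5′ to 3′ on the gene's strand and holds no base of an annotated exon. Capitals mark ACGTG or GCGTG, the core that HIF recognises, on either strand, where CACGT and CACGC are the same letters read on the opposite strand and neighbouring matches can overlap. P4ha1 (chr10:59323118-59323295, plus strand) has 3 matches, Hk2 (chr6:82774455-82774695, minus strand) 2, Pdk1 (chr2:71873131-71873223, plus strand) 1, Bnip3 (chr7:138909520-138909638, minus strand) 5 and Slc16a3 (chr11:120949025-120949052, plus strand) 1.
P4ha1: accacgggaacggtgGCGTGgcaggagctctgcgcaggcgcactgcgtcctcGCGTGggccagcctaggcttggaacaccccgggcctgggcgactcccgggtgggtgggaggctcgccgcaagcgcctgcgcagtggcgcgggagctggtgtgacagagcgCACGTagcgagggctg
Hk2: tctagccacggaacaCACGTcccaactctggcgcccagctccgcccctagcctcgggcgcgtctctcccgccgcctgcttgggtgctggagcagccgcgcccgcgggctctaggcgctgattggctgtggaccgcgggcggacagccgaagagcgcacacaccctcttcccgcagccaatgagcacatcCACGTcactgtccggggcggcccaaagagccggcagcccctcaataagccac
Pdk1: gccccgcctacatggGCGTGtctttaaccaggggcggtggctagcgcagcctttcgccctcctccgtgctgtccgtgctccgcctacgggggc
Bnip3: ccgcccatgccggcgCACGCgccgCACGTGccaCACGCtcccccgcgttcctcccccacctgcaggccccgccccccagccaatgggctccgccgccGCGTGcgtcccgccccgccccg
Slc16a3: cgccaggcagcggtgACGTGcgcggggg

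Of the 34 members with an entry 13 have more than 1, at several starts, and the first listed entry of each gene, which is the one printed above, was counted. In the 250 bases before that start, 26 of the 34 members with an entry held either motif on either strand (76.5%), against 38.6% of 27025 genes with an entry. ACGTG alone was found in 16 members (47.1%) and in 16.6% of all genes. Counting a match in any entry of a gene, the members numbered 32 for either motif (94.1%, against 41.5% of all genes) and 22 for ACGTG (64.7%, against 18.5%). Among the promoters of all genes whose GC content was at or above the lower quartile of the members (55.6%), the shares were 59.3% and 21.9%. A match is a description of letters and not a measured binding site.

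The 3 collagen hydroxylases had the lowest median of any role under C269, at -1.46. P4ha1, the catalytic subunit of prolyl 4-hydroxylase and a HIF target, was at 76.1, 197, 81.1, 182 and 234 CPM in 4T1 CTRL and at 76.7, 56.8, 64.6, 20.9 and 17.6 CPM in 4T1 C269. Control libraries 2, 4 and 5 were high, and the groups overlapped only through control library 1 and C269 library 6. The log2 fold change was -1.61, SE 0.49 (unadjusted p = 0.00697, adjusted p = 0.355), and -1.100, SE 0.38 (unadjusted p = 0.0147, adjusted p = 0.809) without libraries 9 and 10 (edgeR). In the authors' deposited table P4ha1 was the 1 member of 38 with an adjusted p under 0.05 (0.0397), where 4.5% of the 18191 genes with an adjusted p passed. P4ha2 was at -1.46 (SE 0.64) with all libraries and at -0.996 (SE 0.68) without those 2, Plod2 at -1.06 (SE 0.47) and -0.63 (SE 0.44), and library 5, with 159 and 206 CPM, was far above the other controls for both.

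Ndrg1 was at 368, 869.7, 425, 727 and 612 CPM in 4T1 CTRL and at 391, 277, 315, 181 and 139 CPM in 4T1 C269. Only library 6 exceeded the lowest control, library 1, and the lowest values were those of libraries 9 and 10. The fit of all 30 libraries shares 1 estimate of the spread across populations. It called 2 of 38 members, P4ha1 (adjusted p = 0.00715) and Ndrg1 (adjusted p = 0.0223; edgeR), and 606 of 14731 genes.

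Of the glycolytic genes, Hk2 was the 1 whose groups parted when libraries 9 and 10 were left out. It was at 382, 909, 347, 652 and 839 CPM in 4T1 CTRL, at 336, 269.7 and 286 CPM in C269 libraries 6 to 8, and at 368 and 491 CPM in libraries 9 and 10. Libraries 6 to 8 lay below all controls, and libraries 9 and 10 within their range. Such a separation of libraries 6 to 8 below the controls was found for 1 of 38 members (2.63%) and for 2.85% of all 13750 genes tested. The log2 fold change was -0.78, SE 0.303 (adjusted p = 0.367), or -0.95, SE 0.33 (adjusted p = 0.809) without them (edgeR). Eno1, the enolase of most tissues, had a fold change of -0.72 (SE 0.25), with 46.4, 91.99, 33.4, 71.2 and 58.5 CPM in CTRL and 30.5 to 39.9 CPM in C269. All 5 genes of lower glycolysis and 9 of 10 of upper glycolysis had lower values in C269, with medians of -0.59 and -0.35, or -0.17 and -0.15 without libraries 9 and 10.

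The genes of pyruvate fate differed among themselves. Pdk1 was at 37.8, 94.1, 40.8, 67.7 and 59.6 CPM in CTRL and at 23.5, 25.2, 50.2, 35.7 and 35.4 CPM in C269, where only library 8 reached the control range. Its fold change was -0.78 (SE 0.27), and -0.795 (SE 0.32) without libraries 9 and 10. Ldha stood at -0.01 (SE 0.22) in the fit of all 10 libraries. Slc16a3 was at 244, 136 and 113 CPM in libraries 6 to 8 and at 20.4 and 22.99 CPM in libraries 9 and 10, so that its fold change was -0.64 (SE 0.61) with the latter and -0.0034 (SE 0.304) without them.

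Libraries 9 and 10 set the direction or size of several other members. Hilpda was at 392, 699, 405, 538 and 422 CPM in CTRL and at 599.7, 429.6, 296, 19.8 and 25.1 CPM in C269, and its fold change was -0.72 (SE 0.79) with and -0.01 (SE 0.298) without the last 2. Car9 was at 6.86 to 13.99 CPM in libraries 6 to 8 and at 71.4 and 67.4 CPM in libraries 9 and 10, against 6.94 to 20.6 CPM in CTRL. Its fold change was 1.24 (SE 0.68) with them and -0.49 (SE 0.48) without, and that of Ak4 0.65 (SE 0.69) and -0.74 (SE 0.600). Slc2a3 was at 5.84 and 2.32 CPM there and at 51.03 to 76.97 CPM in libraries 6 to 8. The 7 HIF targets outside the other roles, Hilpda, Ndrg1, Car9 and Ak4 among them, all had lower values without these libraries, with a median of -0.49.

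**Figure D3:**
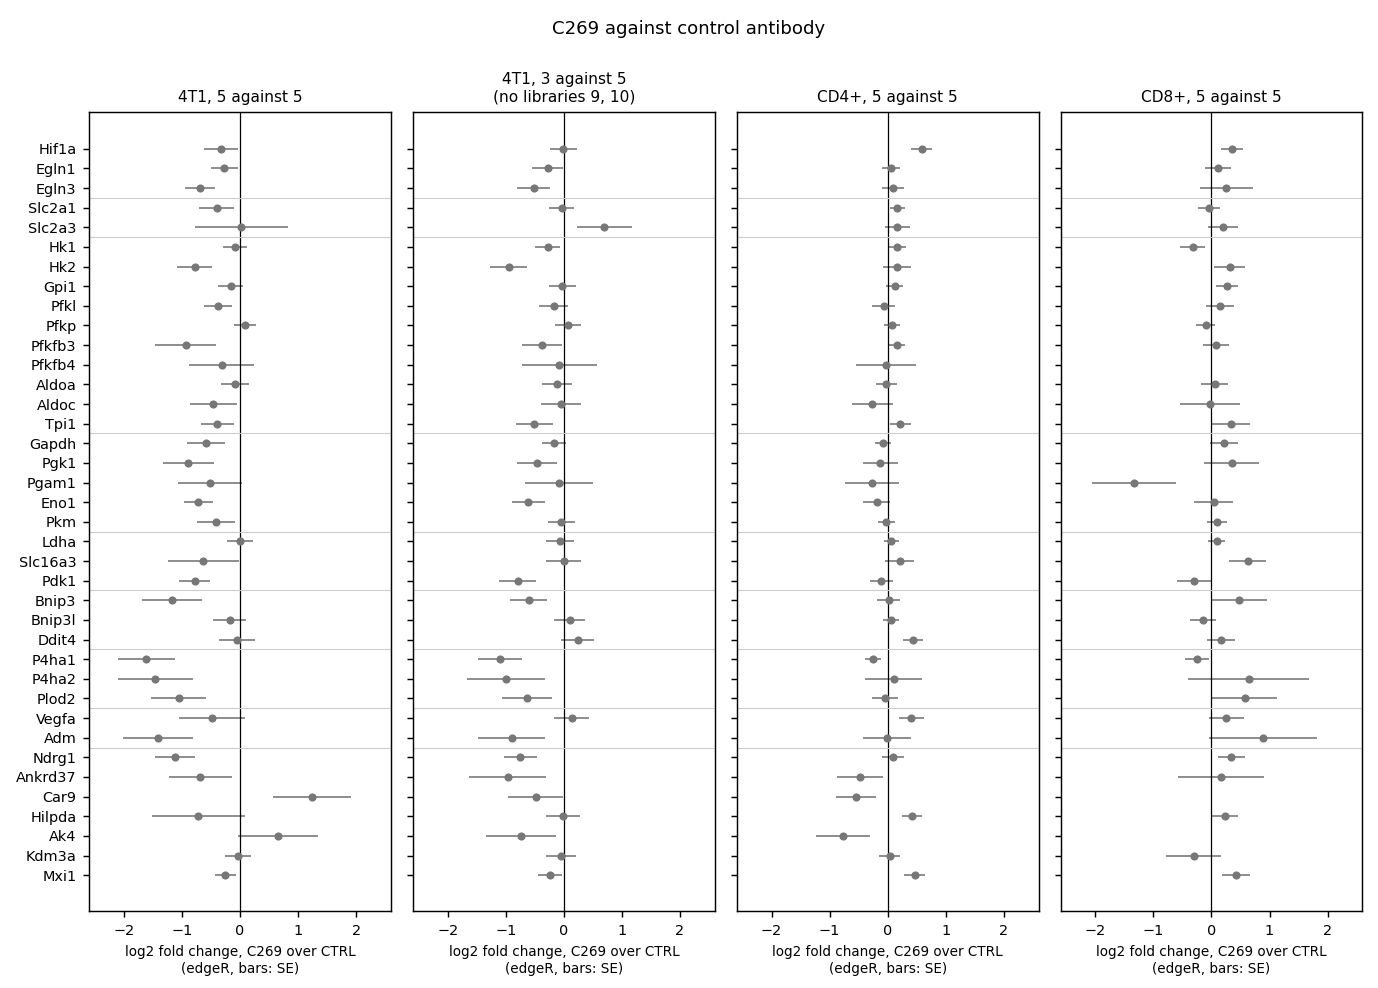
Log2 fold change of C269 over control antibody for each member (rows) in the 4T1 fraction with all libraries, in the 4T1 fraction without libraries 9 and 10, in CD4+ and in CD8+ T cells, with bars of 1 SE from edgeR. No point passed an adjusted p of 0.05. In the first panel 34 of 38 points lie left of 0, and Car9 is at 1.24 in the first and -0.49 in the second.

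Egln3 had a fold change of -0.69, SE 0.26 (adjusted p = 0.367) and -0.52, SE 0.29 (adjusted p = 0.884) without libraries 9 and 10, and Hif1a of -0.33 (SE 0.29) and -0.01 (SE 0.23) (edgeR). Bnip3 was at 113, 199, 102, 286 and 188 CPM in CTRL and at 128, 78.5, 115, 27.2 and 20.1 CPM in C269, with fold changes of -1.17 (SE 0.52) and -0.61 (SE 0.32). Only libraries 6 and 8 of C269 reached the control range. Its paralog Bnip3l had a fold change of -0.18 and Ddit4, which restrains mTOR, of -0.06. With and without these libraries, Adm stood at -1.41 (SE 0.604) and -0.896 (SE 0.58), and Vegfa at -0.48 (SE 0.57) and 0.13 (SE 0.297).

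**Figure D4:**
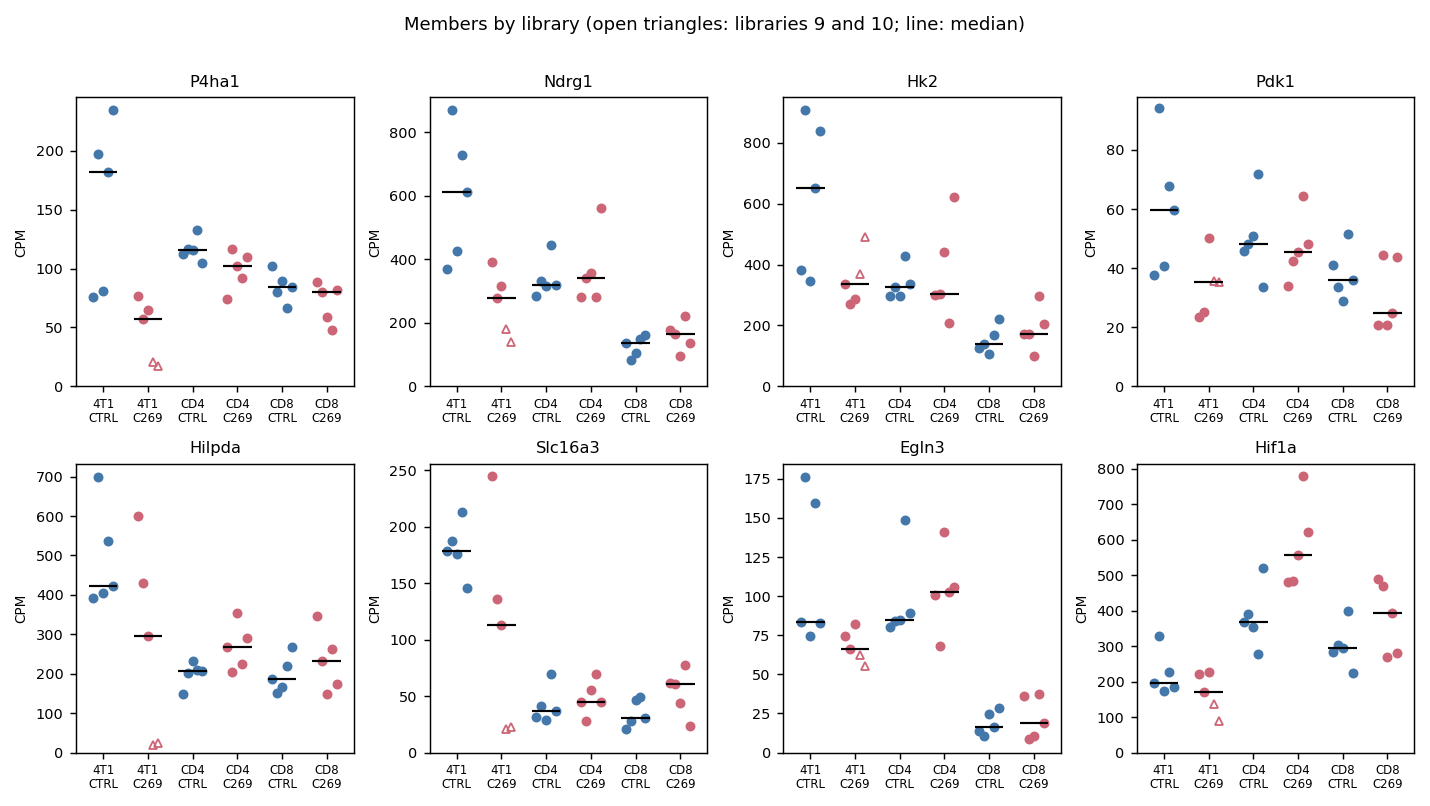
CPM of 8 members in each library (points), by group, with the group median as a line; open triangles are libraries 9 and 10. P4ha1, Ndrg1, Hk2 and Pdk1 have control medians above the C269 medians in 4T1, and Egln3 is low throughout CD8.

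The 4T1 control libraries differed among themselves. Chi-square per gene between 2 libraries, lower where their counts are more alike, was 5.07 for libraries 1 and 3. The other control pairs ranged from 23.02 to 72.62, and libraries 12 and 13 of CD4 CTRL stood at 5.78. Libraries 9 and 10 stood at 10.38, and each against libraries 6 to 8 at 118.4 to 160.3. The tests count every library as a separate sample, and whether such close pairs share a source is not given. Libraries 1 and 3 also had the lowest mean log2 levels over the members among these controls. The means were 6.2362 and 6.2988, against 6.5834 to 6.9985 in libraries 2, 4 and 5. Averaged on the log2 scale, 36 of 38 members were higher in libraries 2, 4 and 5 than in libraries 1 and 3. The median difference was 0.53. Between libraries 1 and 3 and C269 libraries 6, 7 and 8, 21 of 38 members were higher in the controls (median difference 0.025). In libraries 2, 4 and 5, 35 of 38 were higher than in those 3 C269 libraries (0.42). A split that follows the members' own levels favours such counts, and they were not set beside all genes. No conclusion on the difference between treatments is drawn from them. Libraries 1, 3, 6, 7 and 8 also held 8999.5 to 38138 CPM of 7 erythroid genes, against 182 to 1499 CPM in libraries 2, 4 and 5, and 214 to 1085 CPM of 6 B cell genes, against 11.3 to 62.2 CPM. Ribosomal RNA took 2.02% and 0.961% of counts in libraries 1 and 3, 5.497% to 5.85% in libraries 2, 4 and 5, and 0.579% to 2.601% in libraries 6 to 8. The part of these in the difference between treatments was not tested.

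Markers of other cells moved with the comparison as well. Of 12 epithelial genes 10 were tested and 10 had higher values in C269 at an unadjusted p under 0.05, 8 of them without libraries 9 and 10 (252 to 631 CPM summed in CTRL, 416 to 7213 in C269). Of 12 macrophage and monocyte genes 9 had lower values, 5 of them at that level (3143 to 11823 CPM in CTRL, 589 to 5437 in C269), as had all 9 fibroblast genes, 1 of them at that level (3274 to 54681 and 1115 to 14823 CPM). Without libraries 9 and 10, 3 macrophage genes were lower and 1 higher at that level. No fibroblast gene was. The C269 sums were then 2574 to 5437 CPM for macrophage genes and 4707 to 14823 CPM for fibroblast genes. Of 11 neutrophil genes 10 had lower values, with a median of -0.66, and of 0.07 without libraries 9 and 10 (4489 to 15021 and 374 to 13905 CPM), and all 12 T cell genes had higher values, with medians of 1.25 and 1.71 (16.3 to 331 and 144 to 634 CPM). No gene of these 5 lists was at 0 in a whole group. Their part in the lower hypoxia and glycolysis values was not tested.

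The other pathway genes in the 4T1 fraction divided by list. Of 38 tested further hypoxia targets 29 had lower values in C269, with a median of -0.50, and of -0.41 without libraries 9 and 10. At an unadjusted p under 0.05, 5 were lower and 4 higher, where 4.86% of all genes were lower. Without libraries 9 and 10, 2 were lower and 1 higher at that level. Nos2, the inducible nitric oxide synthase, had the smallest p among them (-1.67, SE 0.43), and Stc2, a secreted stanniocalcin, and Tfrc, the transferrin receptor, had higher values (2.78, SE 0.89 and 2.33, SE 0.67). Of the 23 tested glycolytic and pyruvate genes 13 had higher and 10 lower values, with a median of 0.26. Mpc2, a subunit of the mitochondrial pyruvate carrier, was at 0.89 (SE 0.26) and Eno3, the muscle enolase, at -0.84 (SE 0.28). Without libraries 9 and 10, 25 were tested, with 11 higher and 14 lower and a median of -0.13. Mpc2 was then at 0.54 (SE 0.25) and Eno3 at -0.55 (SE 0.24). Of 12 HIF regulators 7 had higher values, with Hif1an at 0.99 (SE 0.38). Without libraries 9 and 10 the number was 10, with Hif1an at 0.48 (SE 0.37). In edgeR's fit of the 10 libraries 0 of these passed the adjusted threshold. DESeq2 called Nos2, Stc2 and Tfrc, and the fit of all 30 libraries called Mpc2 (0.93, adjusted p = 0.01799) and Tfrc (2.39, adjusted p = 0.00566).

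In CD4+ T cells no member passed under C269. Of 38 tested 0 were called, as were 0 of 12393 genes (0%, edgeR; DESeq2 called 0 members and 13 genes), 22 were above and 16 below 0, and the median log2 fold change was 0.06. At an unadjusted p under 0.05, 4 members were higher and 0 lower (10.5%, against 3.5% of all genes on the higher side). They were Hif1a, Mxi1, Ddit4 and Hilpda.

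Hif1a had the smallest p of these. It was at 368, 391, 352, 277 and 521 CPM in CD4 CTRL and at 480.1, 483, 558, 779.5 and 621 CPM in CD4 C269. Only control library 15 reached into the C269 range, and the fold change was 0.58, SE 0.18 (unadjusted p = 0.00505, adjusted p = 0.743). Ddit4 was at 173, 176, 202, 179 and 219.8 CPM in CTRL and at 177, 254, 279, 226 and 357 CPM in C269 (0.43, SE 0.17, adjusted p = 0.882), with library 16 inside the control range. Mxi1, an antagonist of MYC, had a fold change of 0.46 (SE 0.19) and Hilpda of 0.41 (SE 0.17) (edgeR). Among glycolytic genes Hk2 had a fold change of 0.16 (SE 0.24), Ldha of 0.06 (SE 0.13) and Pkm of -0.02 (SE 0.15), and all 5 genes of lower glycolysis were below 0, with a median of -0.13. P4ha1 was at -0.25 (SE 0.14).

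Markers of some other cells had higher values in CD4 C269 too. Of 12 epithelial genes 10 were tested and all had higher values, 9 of them at an unadjusted p under 0.05, with a median of 1.19 (229.7 to 351 CPM summed in CTRL, 332 to 931 in C269). All 6 CD8 T cell genes had higher values, 4 of them at that level (105 to 163 and 143 to 463 CPM), as had all 9 fibroblast genes, 0 at that level. Macrophage and monocyte genes went both ways: of 12 tested 5 were higher, 2 of them at that level, and 7 lower, with a median of -0.32. No gene of these lists was at 0 in a whole group, and their part was not tested.

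Library 14 of CD4 CTRL stood above its group for many members. Aldoa was at 1032 CPM there and at 566 to 667 CPM in the other 4, Pfkl at 177 against 74.2 to 92.5 CPM, and Bnip3 at 139 against 60.1 to 75.9 CPM. Its T cell genes summed to 1771 CPM, against 4304 to 4622 CPM in those 4, and its macrophage genes to 5999 CPM, against 1682 to 3645 CPM. Without library 14 the median log2 fold change of C269 over the members was 0.14, against 0.06 with it. That shift was not set beside the one over all genes. The part of these markers was not tested.

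In CD8+ T cells 35 members were tested, Ak4, Car9 and Pfkfb4 being too low. None was called (0 of 35, against 1 of 10943 genes, 0.00914%; edgeR), 26 were above and 9 below 0, and the median log2 fold change was 0.17. At an unadjusted p under 0.05 there were 0 members, against 6.63% of all genes, and DESeq2 called 0 members and 13 genes. With voom and sample weights the median was -0.023.

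The smallest p belonged to Slc16a3, at 20.98, 28.3, 46.4, 48.9 and 30.4 CPM in CD8 CTRL and at 61.2, 60.3, 43.7, 77.1 and 23.9 CPM in CD8 C269 (0.62, SE 0.32, unadjusted p = 0.0698, adjusted p = 0.752, edgeR). Libraries 28 and 30 were within the control range and the other 3 above it. Hif1a was at 284, 302, 293, 398 and 224 CPM in CTRL and at 490.1, 469.7, 270.1, 393 and 282 CPM in C269 (0.35, SE 0.19, adjusted p = 0.776, edgeR), with 3 C269 libraries inside the control range. Pgam1, a phosphoglycerate mutase, had a fold change of -1.33 (SE 0.72), Hk1 of -0.33 (SE 0.22) and Ndrg1 of 0.34 (SE 0.24). Libraries 26, 27 and 29 carried the most ribosomal RNA of all CD8 libraries (6.43% to 7.95%, against 2.48% to 5.08% in the other 7), and their mean log2 levels over the members were 5.85, 5.99 and 5.79, against 5.199 and 5.45 in C269 libraries 28 and 30. The part of ribosomal RNA in the difference between treatments was not tested. Its relation to these means over all 10 CD8 libraries is given under Other observations. Of the further hypoxia targets Stc2 had fold changes of 2.39 (SE 0.74) here and 2.12 (SE 0.74) in CD4, and of the regulators Vhl, which targets HIF for degradation, of 0.76 (SE 0.28) here, 0 of them passing with the filter on low counts. With no filter Stc2 passed in CD8 (2.33, adjusted p = 0.00256) and in CD4 (2.11, adjusted p = 4.28e-04; edgeR). Epas1, also of the regulators, was at 1.27 (SE 0.41) in CD4 without passing. It passed there with no filter (1.26, adjusted p = 0.00116; edgeR). The fits with no filter called 162 genes in CD8 and 83 in CD4.

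Markers of some other cells had higher values in CD8 C269. Of 9 fibroblast genes 7 were tested and all were higher, 5 of them at an unadjusted p under 0.05 (334 to 914 CPM summed in CTRL, 182 to 7822 in C269). The 5 epithelial genes tested, of 12, were all higher at that level (37.9 to 111 and 49.3 to 639.7 CPM). Of 7 neutrophil genes tested, of 11, 6 were higher, 3 at that level (303 to 593 and 434 to 2144 CPM). Macrophage and monocyte genes went both ways: of 12 tested 5 were higher and 7 lower, 2 of the lower at that level, with a median of -0.13. The ranges overlapped for each list, no gene of these lists was at 0 in a whole group, and their part was not tested.

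Whether C269 effects on the members differed between tumour and T cell fractions was tested as a difference of effects. Against CD4 the effect in 4T1 was lower for 35 of 38 members (median -0.48, all genes 0.08), with 0 members and 1 of 14731 genes called (0.00679%) and 6 members at an unadjusted p under 0.05, all lower (15.8%, against 2.86% of all genes). Against CD8 it was lower for 32 (median -0.61, all genes 0.11), with 0 members and 1 gene called (0.00679%). There 8 members, all lower, had an unadjusted p under 0.05 (21.1%, against 6.96% of all genes). DESeq2 called 1 member there, Ndrg1, and 453 genes. Ndrg1 had the smallest p in both, at -1.17, SE 0.38 (adjusted p = 0.313) and -1.39, SE 0.38 (adjusted p = 0.1002), followed by P4ha1 at -1.33 (SE 0.45) and -1.31 (SE 0.45) (edgeR). Without libraries 9 and 10 the medians were -0.27 and -0.37. P4ha1, Hk2 and Ndrg1 then had an unadjusted p under 0.05 in each, 7.89% of the members. That share was not set beside all genes. Leaving out library 6 brought Ndrg1 past the threshold against CD8 (-1.66, adjusted p = 0.0279, edgeR), in a fit that called 220 genes. Both differences share the 4T1 libraries. Between CD8 and CD4 the median was 0.098, with 0 members (0 at an unadjusted p under 0.05) and 0 genes called (0%, edgeR; DESeq2 0 members and 2 genes).

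Pairs of family members were set against each other within each library, as the log2 ratio of CPM + 1. The ratio does not correct for transcript length, so it is read across libraries only, and no test was made. Hk2 over Hk1 had a median of 2.35 in 4T1 CTRL, 1.87 in CD4 CTRL and 0.59 in CD8 CTRL. Egln3 over Egln1 had medians of 0.47, 0.15 and -2.499, and ran from -3.76 to -0.99 in the 10 CD8 libraries and from -0.32 to 0.89 in the other 20. Both of these ratios were lowest in CD8 CTRL by their medians. Pfkl over Pfkp ran from -2.401 to -1.39 in CD8 and from -1.27 to 0.06 elsewhere, and Slc2a1 over Slc2a3 from 0.07 to 0.897 and 1.49 to 4.99.

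Within the 4T1 fraction, Bnip3 over Bnip3l was 1.54 to 1.83 in control libraries 2, 4 and 5, 0.49 and 0.21 in libraries 1 and 3, 0.199 to 0.79 in C269 libraries 6 to 8, and -0.66 and -1.23 in libraries 9 and 10. The first 3 libraries stood above the rest. Hk2 over Hk1 had a median of 2.04 in 4T1 C269, inside the control range of 1.97 to 3.09. P4ha1 over P4ha2 had its highest control median in CD8 (4.41), where P4ha2 was low.

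**Figure D5:**
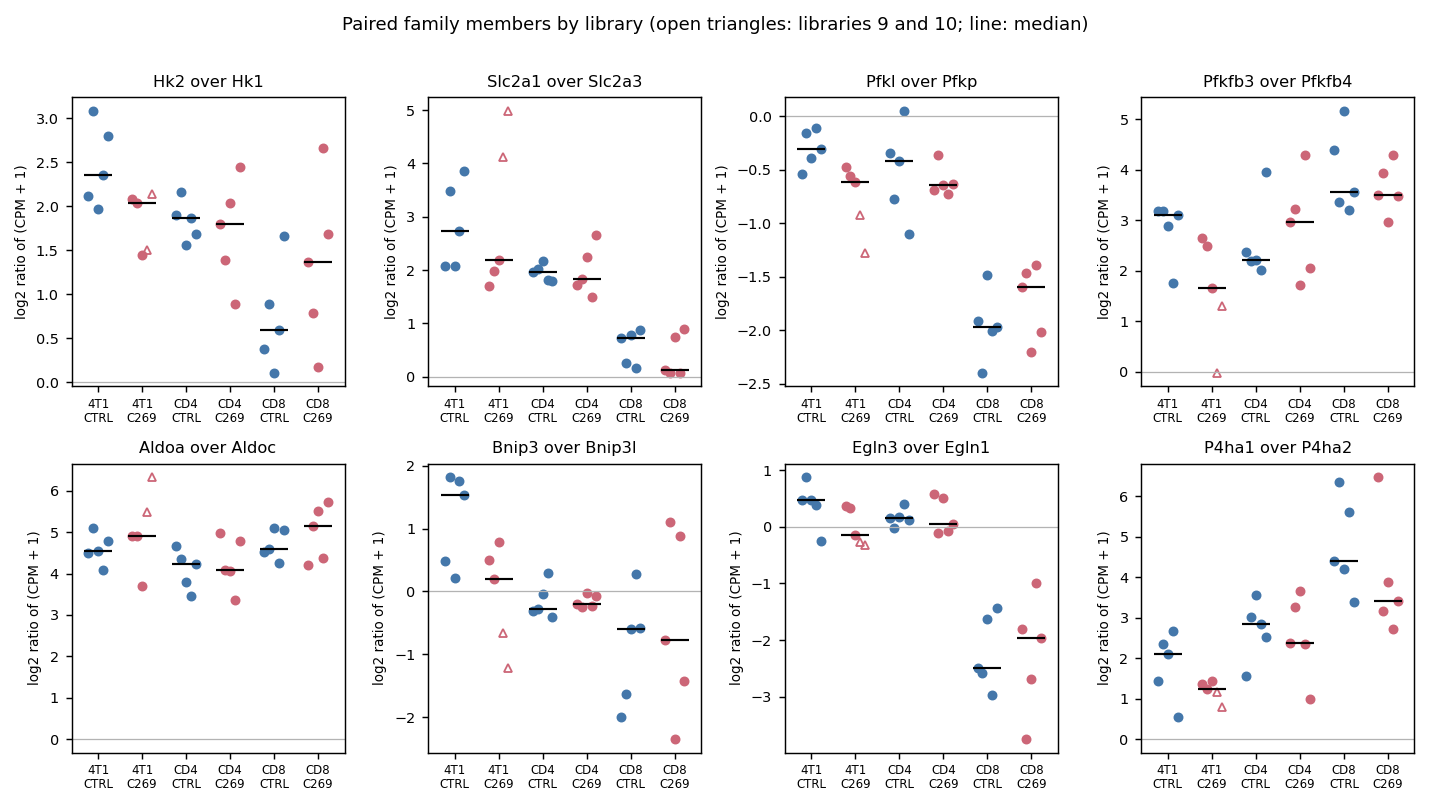
Log2 ratio of (CPM + 1) for 8 pairs of related members in each library, by group, with medians as lines and libraries 9 and 10 as open triangles. Egln3 over Egln1, Pfkl over Pfkp and Slc2a1 over Slc2a3 are lower in all CD8 libraries than in all others.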

How the data were processed

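The deposited raw counts per gene come from FastQC and featureCounts, per the submitters' processing notes, which name mm9; for the aligner and for versions: not given in the sources used here. In GENCODE M21 55141 genes were found, and 99.6% had the GRCm38 start, so GRCm38 is used for coordinates. RNA came from 30 samples. The authors' deposited table also gives log2 fold changes and adjusted p-values, from DESeq2 per the file headers. Columns were tied to groups through the deposited condition sums.

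Here 7 ribosomal RNA rows (3.05% of counts) were left out, and CPM is over the remaining counts. Differences were tested with edgeR 4.0.16 in R 4.3.3 (filterByExpr, TMM, quasi-likelihood test, Benjamini-Hochberg threshold 0.05), tested on simulated data. Each C269 comparison used the 10 libraries of its population, the population contrasts the control libraries, and the differences of effects all 30. SE is the log2 fold change over the root of F. Alternatives were DESeq2 1.42.0, RLE scaling, no filter, limma 3.58.1 voom with sample weights, a fit of all 30 libraries, and leaving out libraries. log2(CPM + 1) was used for means and ratios. Promoter sequences are from RefSeq (GRCm38.p6), 34 of 38 members matched. Near-identical copies were sought with BLAST 2.17.0.

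Members and lists were chosen with earlier results of these data known. Named with fold changes are members passing a test, otherwise up to 15 with the smallest p, up to 12 in a population contrast and 3 in a difference of effects, and up to 4 genes of each other list; others were named to complete a role.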

Additional observations from a re-analysis of the deposited data

Results flagged for a closer look

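In each group of 5 libraries, a gene was singled out where the gap between its highest or lowest library and the next, divided by the range of the group, exceeded Dixon's critical value of 0.71. This held for 17 of 228 combinations of gene and group, where chance gives about 1 in 20.

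Library 14 of CD4 CTRL was the highest in 6 of these. Ak4 was at 21 CPM against 5.09 to 6.56 CPM in the other 4 libraries, Aldoa at 1032 CPM against 566 to 667, Bnip3 at 139 CPM against 60.1 to 75.9, Egln3 at 149 CPM against 80.2 to 89.3, Gpi1, the glucose phosphate isomerase, at 310.3 CPM against 193 to 219, and Pfkl at 177 CPM against 74.2 to 92.5. Library 24 of CD8 CTRL was the highest for Aldoc, a second aldolase (38.5 CPM against 13.6 to 15.3 CPM), Egln1 (136 CPM against 69.3 to 84.2 CPM) and Mxi1 (119.7 CPM against 89.8 to 95.9 CPM). Library 5 of 4T1 CTRL was the highest for Adm (87.3 CPM against 18.8 to 29.4 CPM) and Plod2 (206 CPM against 59.95 to 71.1 CPM), and library 4 for Mxi1 (109 CPM against 70.99 to 76.7 CPM).

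Single libraries were the lowest of their group in the other 5. Ankrd37, a HIF target of the ankyrin repeat family, was at 2.71 CPM against 9.22 to 12.3 CPM with library 6 of 4T1 C269 the lowest, and Hk1 at 85.9 CPM against 107 to 115 CPM with library 16 of CD4 C269 the lowest. Kdm3a, a histone demethylase induced by hypoxia, was at 40.1 CPM against 50.8 to 55.8 CPM with library 15 of CD4 CTRL the lowest and at 3.49 CPM against 35.4 to 76.2 CPM with library 27 of CD8 C269 the lowest. Vegfa was at 33.3 CPM against 67.2 to 85.3 CPM with library 28 of CD8 C269 the lowest.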

How the results depend on the processing

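Over 480 alternative values of the counts and medians, 412 kept their direction and stayed within 1.5 times or 1 SD. No member was called for C269 in any population except in the fit of all 30 libraries, which called 2 in 4T1 (606 genes). For the C269 comparison in 4T1, DESeq2 called 307 genes, voom with sample weights 1, and DESeq2 without libraries 9 and 10, an alternative added after the data were seen, 84. In CD4 DESeq2 called 13 genes and the fit with no filter on low counts 83; in CD8 the same called 13 and 162, and the fit of all 30 libraries 0. The members' median in CD8 was -0.023 with voom. Between populations the fit of all 30 libraries called 3 members and 868 genes in 4T1 against CD4, and 1032 genes in CD8 against CD4. For the difference of effects between 4T1 and CD4, DESeq2 called 50 genes, no filter 6 and the fit without libraries 9 and 10 0; between 4T1 and CD8 DESeq2 called 1 member and 453 genes and no filter 58; between CD8 and CD4 DESeq2 called 2 genes. The cause of these shifts was not tested.

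Leaving out 1 library at a time gave 0 to 0 members for C269 in each population, 0 to 10 genes in CD4 (10 without library 15) and 0 to 1 in CD8. The members' median ran from -0.61 to -0.30 in 4T1, from -0.0063 (without library 20) to 0.14 in CD4 and from 0.05 to 0.31 in CD8. Members called ran from 8 to 13 (998 to 1938 genes, 998, 1000 and 1003 without libraries 13, 12 and 15) in 4T1 against CD4, 23 to 28 against CD8 and 6 (without library 22) to 10 in CD8 against CD4. For the differences of effects, genes called ran from 0 to 16 between 4T1 and CD4 (16 and 10 without libraries 6 and 7), from 1 to 220 between 4T1 and CD8 (220, 152, 84, 92 and 41 without libraries 6, 7, 8, 28 and 1, with 0 to 1 members) and from 0 to 1 between CD8 and CD4, where the members' median ran from -0.047 (without library 14) to 0.20 and also lay below 0 without library 22 (-0.0011), 26 (-0.0035) or 27 (-0.018).

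Single genes changed sign in 8 of their alternative values: Car9 in 4T1 without libraries 9 and 10 (-0.49; DESeq2 -0.54), and in CD8 Plod2 (-0.49 with voom, -0.0531 without library 29, to 0.86 without library 28), Tpi1 (-0.10 with voom, -0.14 without library 27, to 0.53 without library 24), Bnip3 (-0.32 with voom) and Adm (-0.28 with voom). No paired analysis was possible because the letters in the sample titles cannot be tied to the numbered count columns. Depth limits Ak4, Car9 and Pfkfb4, which were too low to test in CD8.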

Other observations

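Across the 10 CD8 libraries, both treatments together, the mean log2 level of the members was set against the share of ribosomal RNA. Pearson's r was 0.68 (permutation p = 0.0327, 0.131 adjusted by Benjamini-Hochberg over the 4 relations computed) and Spearman's rho 0.661 (permutation p = 0.0453, adjusted 0.181). Without the 2 libraries farthest from the median of the ribosomal share, r was 0.487. In the 10 CD4 libraries r was 0.392 (permutation p = 0.26, adjusted 0.347) and rho 0.333 (permutation p = 0.347, adjusted 0.491), with r at 0.515 without the 2 farthest. Against the number of genes detected, r was -0.426 in CD8 (permutation p = 0.228, rho -0.176, r without the 2 farthest 0.284) and -0.0738 in CD4 (permutation p = 0.841, rho -0.321, r without the 2 farthest 0.101). None of the 4 relations passed the adjustment.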
